A study of Rattus norvegicus with 30 samples.

Results

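The expression of 6 genes of cardiac conduction was examined in the hearts of female and male rats at 3 ages. These genes were Scn4b, Hcn2, Hcn4, Gja1, Gja4 and Gja5, and they were found by their symbol in the normalized table that the authors deposited for each age. Every table row that carried one of these symbols was taken. There were 11 such rows at each age, 5 of them named Gja1 and 2 named Gja4, of 27408 rows at 8 weeks, 27383 at 21 weeks and 26553 at 78 weeks. The animals were untreated rats of the inbred F344 strain, fed NIH-31 diet. Hearts of 5 females and 5 males were taken at each of 8 weeks (young), 21 weeks (adult) and 78 weeks (old), with 1 array per rat. RNA of each whole heart, frozen and powdered, was labeled with Cy3 and hybridized to an Agilent array of 45018 spots, and no agent or genetic change separated the groups.

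The heartbeat starts in the sinoatrial node, where HCN channels carry an inward current at negative voltages that helps to depolarize pacemaker cells. In working muscle and in the His-Purkinje system the upstroke of the action potential is carried by sodium channels, whose gating is tuned by beta subunits such as the product of Scn4b. The impulse then passes from cell to cell through gap junctions, which are built of connexins. Gja1 encodes Cx43, the main connexin of ventricular muscle. Gja5 encodes Cx40 of atrial muscle, the conduction system and arterial endothelium, and Gja4 encodes Cx37 of endothelium. In extracts of a whole heart, fewer cells of a type and less RNA per cell cannot be told apart, and nodal tissue is a small part of the extract.

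The scanner software called 17182 to 24290 spots per array well above background. The 75th percentile of the signal was lowest in adult males, 39.9 to 105 (median 72.1) against 82.7 to 123 (median 106) in adult females. Females were at array positions 2 and 4 and males at 1 and 3, so array position and sex cannot be told apart. All 11 rows of ventricular and all 6 rows of atrial cardiomyocyte markers were well above background on every array. The Y-linked gene Ddx3y had log2 levels of -5.86 to -4.92 in young and adult females and -1.02 to -0.44 in young and adult males, and Eif2s3y likewise separated these groups. Among old rats Ddx3y and Eif2s3y were at -0.79 and 1.47 in female replicate 2 and at -5.36 and -5.47 in male replicate 3. Both arrays, which shared a slide, were therefore at odds with their sex label. The labels were kept. For 1 row of each gene the difference between the sexes at 78 weeks is given with and without both arrays. Other results at 78 weeks, among them marker sums, gene lists and changes with age, include both arrays unless stated otherwise.

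Between the sexes, rows of Gja1, Gja4 and Hcn2 stood apart most at 21 weeks. At 8 weeks rows of Gja4 and Scn4b did so, and at 78 weeks the Scn4b row. However, no row of the 6 genes passed the adjusted threshold at any age. Row 1 of Gja4 was well above background on 1 of 30 arrays and is left out of the counts, which therefore cover 10 rows. With limma, a linear model that shares information on variance between rows, the smallest p-value after Benjamini-Hochberg adjustment over all rows was 0.789 at 8, 0.246 at 21 and 0.856 at 78 weeks. The adjusted calls were 0 of 10 rows at each age, against 0.102%, 0.0511% and 0% of all rows. At an unadjusted limma p under 0.05 there were 2 of 10 rows at 8 weeks (1 higher and 1 lower in females) against 5.74% of all rows. At 21 weeks there were 7 (4 higher and 3 lower) against 15.9%, and at 78 weeks 1 (higher) against 5.65%. Of the 7 rows at 21 weeks, 5 carried the name Gja1. Rows 1, 2, 3 and 5 of these came from probes annotated to the strand opposite to the gene, and their source was not tested. Those of the 7 on the strand of their gene were Gja1 row 4, Gja4 row 2 and Hcn2. An exact test that permuted females and males within a row (two-sided, with 0.00794 as its smallest possible p) gave p under 0.05 for 2, 8 and 0 of 10 rows at 8, 21 and 78 weeks, against 6.22%, 16.3% and 6.59% of all rows. All females were above all males in 0, 2 and 0 of the 10 rows, against 0.558%, 1.93% and 0.41% of all rows, and below all males in 0 rows at every age, against 0.85%, 2.12% and 0.49%. Over the 30 exact tests the smallest Benjamini-Hochberg adjusted p was 0.119. With both 78-week arrays of opposite Y-linked level left out, the counts were 0 adjusted (0.0341% of all rows), 3 unadjusted (8.36%) and 1 with all females above all males (3.12%).

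**Figure D1:**
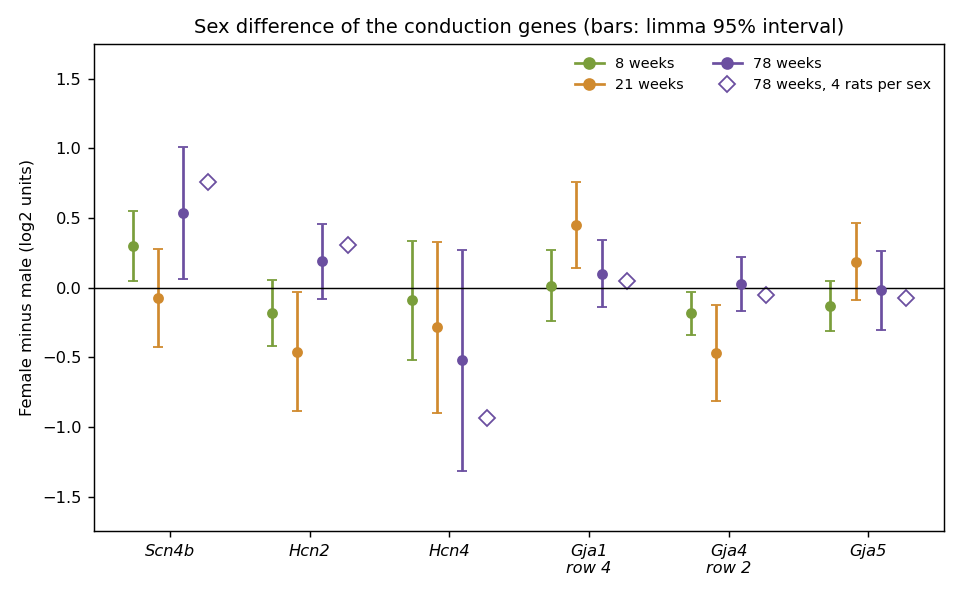
Difference between the sexes (female minus male, log2 units) for 1 row of each conduction gene at 8, 21 and 78 weeks. Circles are means of 5 females minus 5 males with the limma 95% confidence interval, and open diamonds are the 78-week difference with 4 rats per sex, without both arrays whose Y-linked genes were at odds with their label. At 21 weeks Gja1 row 4 lies above 0 (0.45) and Gja4 row 2 (-0.47) and Hcn2 (-0.46) lie below it, and the diamonds of Scn4b (0.76) and Hcn4 (-0.94) lie farther from 0 than the values of all 10 arrays.

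Scn4b was higher in females at 8 weeks, did not separate the sexes at 21 weeks and was higher in most females at 78 weeks. Its row is the mean of a pair of 60-base probes on the strand of the gene. The probe A_43_P10334 lies at chr8:48109084-48109143 and A_42_P674843 at chr8:48115253-48115312 (rn3, the build of the array annotation, as are all coordinates here). Exon and UTR positions were not analysed here. The sequences are shown because the row averages these separate stretches of the transcript, the first probe whole and the second by its last 30 bases:
A_43_P10334: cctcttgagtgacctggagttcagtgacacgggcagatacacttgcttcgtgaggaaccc
A_42_P674843: cagtcttcctatctaactttataggtcaaa

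At 8 weeks the normalized intensity of the Scn4b row (75th percentile of the array set at 1) was 0.699, 0.732, 0.75, 0.793 and 0.835 in females and 0.531, 0.545, 0.603, 0.669 and 0.779 in males. The highest male lay between the females, and the other 4 males lay below all of them. The difference, female minus male, was 0.30 on the log2 scale (SE 0.11, 1.23-fold, exact p = 0.0397, limma adjusted p = 0.790). At 21 weeks the values were 1.19, 1.48, 1.56, 1.64 and 1.78 in females and 1.21, 1.57, 1.67, 1.80 and 1.80 in males. These groups overlapped almost fully, with a difference of -0.07 (SE 0.16, exact p = 0.563).

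At 78 weeks the 5 arrays labeled female had 1.33, 1.64, 1.71, 2.03 and 2.77 and those labeled male 0.990, 1.07, 1.29, 1.39 and 1.70 for Scn4b. The lowest of the female values and the highest of the male values came from the arrays whose Y-linked genes were at odds with their label. With all 10 arrays the difference was 0.54 (SE 0.21, 1.45-fold, exact p = 0.0556, limma adjusted p = 0.856). Without these arrays all 4 females were above all 4 males, and the difference was 0.76 (1.69-fold), with an exact p of 0.0286, the smallest that 4 rats per sex allow, and a limma adjusted p of 0.401. The probe A_42_P674843 gave 0.60 over 5 females and 4 males, since 1 of its spots was flagged as an outlier, and 0.89 without both arrays. A_43_P10334, which was well above background on 23 of 30 arrays, gave 0.53 and 0.73. Within the slides of old rats, the difference of the row was 0.65 and 0.86 on the slides whose labels held and 0.16 on the slide with both odd arrays.

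Hcn2, one of the pacemaker channel genes, was higher in males at 21 weeks by its table row. Its row is a single probe, A_43_P15654, at chr7:11485814-11485873 on the strand of the gene. A second probe of the array annotated to Hcn2, A_44_P911768, at chr7:11484701-11484760, stands in the tables under its own name and not under the symbol. Both were well above background on 30 of 30 arrays, and they are shown, the second by its last 30 bases, because they differed in the size of the sex difference:
A_43_P15654: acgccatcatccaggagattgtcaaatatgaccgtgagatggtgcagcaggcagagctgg
A_44_P911768: caaccccattccgcgcaataaacgacagca

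The Hcn2 row had 0.191, 0.265, 0.277, 0.321 and 0.338 in adult females and 0.321, 0.341, 0.352, 0.369 and 0.525 in adult males. In 3 females it was below all males, and the highest male stood apart from the other 4. The difference was -0.46 (SE 0.19, 1.38-fold, exact p = 0.0238, limma adjusted p = 0.302), and it was -0.50, -0.27 and -0.75 within the 3 slides of that age. The probe A_44_P911768 was brighter, with mean log2 levels of 4.91 in adult females and 5.15 in adult males against -1.04 and -0.59 for A_43_P15654. It gave a smaller difference of -0.24 (exact p = 0.0556). The median difference of all rows at that age was -0.14. The groups overlapped in young rats, with 0.232 to 0.289 in females and 0.260 to 0.371 in males and a difference of -0.18 (exact p = 0.119). In old rats they overlapped with the opposite sign, with 0.248 to 0.337 in females and 0.226 to 0.299 in males (difference 0.19, exact p = 0.135). Without both odd arrays the old rats differed by 0.30 (exact p = 0.0571, limma adjusted p = 0.575), while A_44_P911768 gave 0.09.

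Hcn4, the main pacemaker channel gene of the sinoatrial node, had a dim row that averages a pair of probes. A_44_P327807 at chr8:62686228-62686287 was well above background on 22 of 30 arrays. A_44_P465011 at chr8:62669795-62669854 was so on 2 of 30, so that it has no level of its own here. Both probes nevertheless count equally in the row, so its values partly reflect a probe near background. Their sequences are shown, the whole of the dim probe and the last 30 bases of the other, because only 1 of the stretches was measured above background:
A_44_P465011: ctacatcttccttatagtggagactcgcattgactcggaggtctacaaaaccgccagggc
A_44_P327807: taacaataataaccataaaaaacatacccc

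In old rats the Hcn4 row was 0.0472, 0.0526, 0.0541, 0.0684 and 0.0737 in females and 0.0335, 0.0674, 0.114, 0.126 and 0.127 in males. The highest female and the lowest male were again the arrays at odds with their label. The difference was -0.52 (SE 0.36, exact p = 0.198, limma adjusted p = 0.858), and without both arrays it was -0.94 (1.91-fold lower in females, exact p = 0.0571, limma adjusted p = 0.376), with 3 of 4 females below all 4 males. Within slides of old rats it was -0.90 and -1.26 where the labels held and 0.41 on the slide of both odd arrays. Normexp background correction turned the difference of all 10 arrays to 0.063. In young rats the row was 0.0237 to 0.0394 in females and 0.0248 to 0.0434 in males. In adults it was 0.0256 to 0.0494 in females and 0.0280 to 0.0775 in males. The groups overlapped at both ages, with differences of -0.09 and -0.28 (exact p = 0.675 and 0.405). The probe A_44_P327807 alone differed by 0.21 at 8, -0.39 at 21 and -0.80 at 78 weeks (exact p = 0.492, 0.175 and 0.103). Without both odd arrays it gave -1.20 at 78 weeks (exact p = 0.0571). Its sign at 8 weeks was thus opposite to that of the row.

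The 78-week differences of Scn4b and Hcn4 stood beside differences in marker lists of other cells. The 2 rows of Schwann cell markers had summed intensities of 0.364 to 0.916 in old females and 0.628 to 1.47 in old males, with 3 of 5 female sums below all males. The 2 rows of arterial endothelial markers had sums of 0.117 to 0.159 in females and 0.104 to 0.124 in males, with 4 of 5 female sums above all males. The 6 leukocyte rows had sums of 7.05 to 12.3 in females and 10.9 to 15.5 in males, and the 4 erythroid rows 8.87 to 33.4 and 29.1 to 36.3, each with 3 of 5 female sums below all males. Of the leukocyte rows 5 were lower in females, but the erythroid rows split into 2 higher and 2 lower. Smooth muscle had 4 of 5 rows higher in females (median difference 0.29), and fibroblasts had 6 of 8 rows lower (median difference -0.21). All these sums and medians include both arrays at odds with their label. The 6 atrial marker rows had sums of 751 to 933 in females and 808 to 1009 in males, with 3 rows higher in females and 3 higher in males. Their part in the results was not tested.

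**Figure D2:**
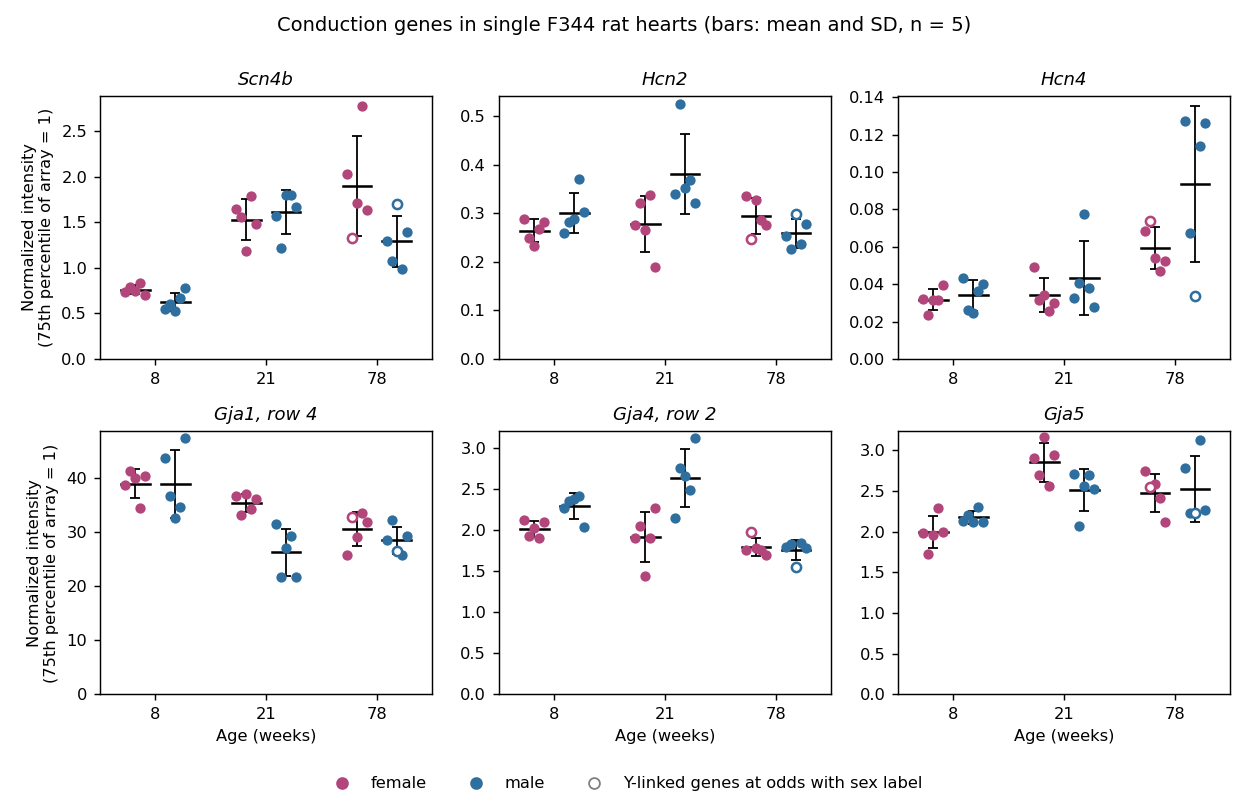
Normalized intensity of 1 table row of each conduction gene (vertical axes start at 0, 75th percentile of the array = 1) in each rat at 8, 21 and 78 weeks. Filled circles are rats, lines and bars are the mean and SD of 5 rats, and open circles are both 78-week arrays whose Y-linked genes were at odds with their sex label. In the Gja1 panel the 5 adult females lie at 33.2 to 37.0, above all adult males at 21.6 to 31.4, and in the Scn4b panel the open circles of old rats are the lowest female and the highest male.

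Gja1 was higher in adult females than in adult males in 4 of its 5 rows. Row 4 is the probe A_44_P393551 at chr20:35435826-35435885, on the strand of the gene, printed at 10 spots of each array. The probes of rows 1, 2, 3 and 5 carry the opposite strand according to the array annotation, which lists them under sequence accessions and not under the symbol. Labeled cRNA is complementary to the message, so a probe is read by RNA of the strand whose letters it carries. Whether the signal of the opposite-strand rows came from Gja1 RNA was not tested. Row 1 (A_44_P125273, chr20:35435827-35435886) is the reverse complement of row 4 over 59 of 60 bases. The pair is shown over 30 bases, in which the capitals mark the same 10 base pairs read from either strand:
A_44_P393551: ACTCATCACAgatgattgaaatgtcgagtt
A_44_P125273: aactcgacatttcaatcatcTGTGATGAGT

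Row 4 of Gja1 had a normalized intensity of 33.2, 34.4, 36.1, 36.7 and 37.0 in adult females and 21.6, 21.8, 27.1, 29.2 and 31.4 in adult males. All 5 females were above all 5 males. The difference was 0.45 (SE 0.14, 1.37-fold), with an exact p of 0.00794, the smallest possible, and a limma adjusted p of 0.274. It was 0.42, 0.34 and 0.74 within the 3 slides, and between 0.45 and 0.98 over the alternative ways of processing. At 8 weeks row 4 was 34.5, 38.7, 40.1, 40.3 and 41.4 in females and 32.6, 34.6, 36.6, 43.7 and 47.4 in males. The females lay within the range of the males, with a difference of 0.01 (exact p = 0.905, limma 95% interval -0.24 to 0.27). At 78 weeks the values were 25.8, 29.1, 31.9, 32.8 and 33.5 in females and 25.8, 26.6, 28.5, 29.2 and 32.3 in males. They overlapped, with a difference of 0.10 (exact p = 0.278) and 0.05 without both odd arrays.

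Of the opposite-strand rows of the Gja1 locus, rows 2, 3 and 5 differed between adult females and males in the direction of row 4, and row 1 in the other. Row 5 (A_44_P836591, chr20:35434637-35434696) had 4.86, 5.08, 5.86, 5.89 and 6.55 in females and 2.89, 2.94, 3.72, 4.17 and 4.20 in males. These groups did not overlap either, and the difference was 0.67 (SE 0.16, 1.59-fold, exact p = 0.00794, limma adjusted p = 0.246). Row 2 (A_44_P547197, chr20:35433580-35433639) gave 0.66 (exact p = 0.0159) and row 3 (A_44_P547191, chr20:35433244-35433303) gave 0.50 (exact p = 0.0397), each with 4 of 5 females above all males. Row 1 had 0.309, 0.319, 0.324, 0.474 and 0.522 in females and 0.325, 0.534, 0.614, 0.701 and 1.11 in males, a difference of -0.68 (exact p = 0.0476, limma adjusted p = 0.312). The probe that is the mirror of row 4 was thus lower in 3 of 5 females than in any male, where row 4 was higher in all 5. A further probe of the locus, A_44_P278604, was well above background on 0 of 30 arrays. At 8 and 78 weeks the differences of rows 1, 2, 3 and 5 were between -0.13 and 0.10, and no exact p was below 0.0794. The probes of rows 2 and 3 are shown as the letters of their reverse complement, which is the strand of Gja1:
A_44_P547197: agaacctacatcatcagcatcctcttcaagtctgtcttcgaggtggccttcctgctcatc
A_44_P547191: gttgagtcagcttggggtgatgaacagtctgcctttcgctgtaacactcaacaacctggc

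**Figure D3:**
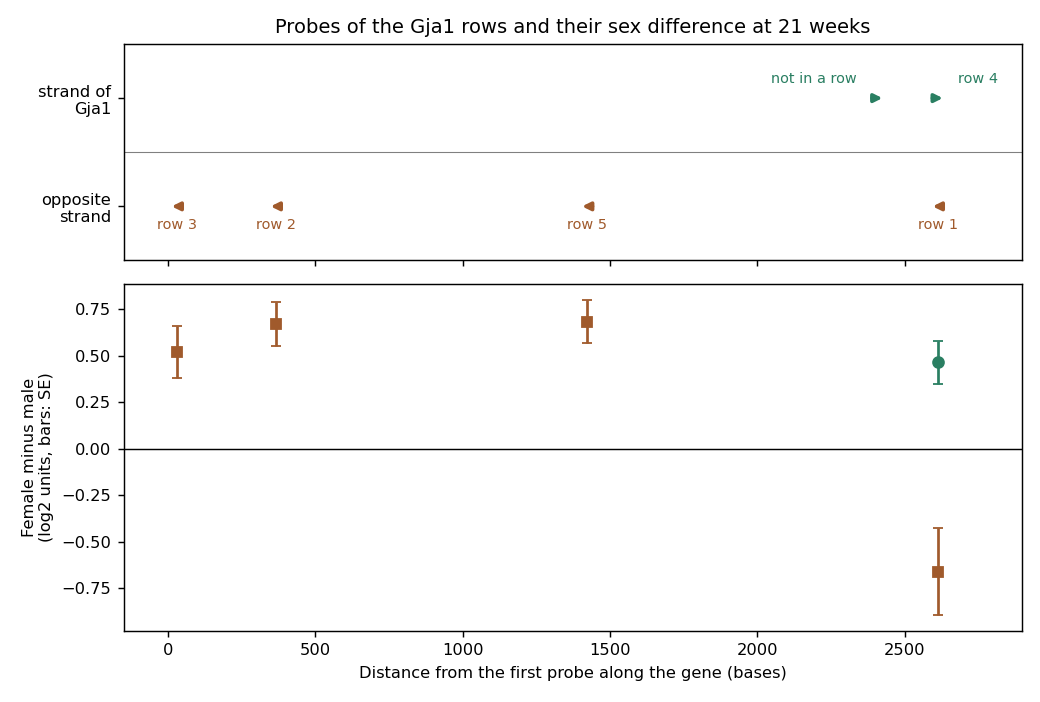
Map of the 60-base probes named Gja1 (upper panel, strand of each probe against the distance in bases from the first probe) and their difference between the sexes at 21 weeks (lower panel, female minus male in log2 units with the SE, from 1 fit of the probes of all 30 arrays with 5 rats per sex and age). Rows 2, 3, 4 and 5 lie above 0 at 0.67, 0.52, 0.47 and 0.68, and row 1, which covers the place of row 4 on the other strand, lies below it at -0.66. The probe in no row was never well above background and has no value.

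Gja4 was higher in males at 21 weeks and, by less, at 8 weeks. Row 2 is the probe A_42_P767077 at chr5:146765384-146765443 on the strand of the gene. Row 1 (A_44_P174316, chr5:146765304-146765363, the opposite strand) is the row left out above as not well above background. In adults row 2 had 1.44, 1.90, 1.91, 2.05 and 2.27 in females and 2.15, 2.5, 2.66, 2.76 and 3.12 in males. Only the highest female reached the range of the males. The difference was -0.47 (SE 0.16, 1.38-fold, exact p = 0.0159, limma adjusted p = 0.277), and within the slides it was -0.30, -0.64 and -0.46. Over the alternative ways of processing it was between -0.47 and -0.12.

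In young rats row 2 of Gja4 was 1.91, 1.94, 2.03, 2.10 and 2.13 in females and 2.04, 2.27, 2.36, 2.39 and 2.42 in males. The groups met at the lowest male, and the difference was -0.18 (SE 0.07, 1.14-fold, exact p = 0.0238, limma adjusted p = 0.789). The old groups had 1.70, 1.76, 1.76, 1.79 and 1.97 in females and 1.56, 1.79, 1.80, 1.83 and 1.85 in males. The highest female and the lowest male were both odd arrays. The difference was 0.03 (exact p = 0.651) and without them -0.05 (exact p = 0.0571), with 3 of 4 females below all males.

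Gja5, the connexin gene of atrial muscle and the conduction system, showed the smallest sex difference among the adult rows of Gja1, Gja4 and Gja5. This ranking does not allow for the median difference of all adult rows, -0.14, which had the sign opposite to that of Gja5. Its probe, A_44_P382979, lies at chr2:191806529-191806588 on the strand of the gene and was well above background on every array. At 21 weeks it had 2.56, 2.69, 2.90, 2.94 and 3.16 in females and 2.07, 2.53, 2.56, 2.69 and 2.70 in males. In 3 females it was above all males, and the difference was 0.19 (SE 0.12, exact p = 0.0476, limma adjusted p = 0.419). At 8 weeks the values were 1.73 to 2.29 in females and 2.12 to 2.30 in males. At 78 weeks they were 2.12 to 2.74 in females and 2.23 to 3.12 in males. Both pairs of groups overlapped, with differences of -0.13 (exact p = 0.0873) and -0.02 (exact p = 0.889). Without both odd arrays the old rats differed by -0.07 (exact p = 0.629).

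One fit of the probes of all 30 arrays, an alternative chosen after seeing the data in which the 6 groups share the estimate of spread, moved 4 rows of Gja1 and row 2 of Gja4 past the adjusted threshold in adults. limma called 5.19% of all probes between the sexes at 21 weeks, 3.1% higher in females, against 0.0268% at 8 weeks and 0.00244% at 78 weeks. Among the conduction genes it called Gja1 row 2 (0.67, limma adjusted p = 0.00509), row 3 (0.52, 0.0329), row 4 (0.47, 0.0229) and row 5 (0.68, 0.00451) higher in females. It called Gja4 row 2 lower in females (-0.45, limma adjusted p = 0.0213). Gja1 row 1 (-0.66, limma adjusted p = 0.0815), Hcn2 (-0.44, limma adjusted p = 0.0671) and Gja5 (0.20, limma adjusted p = 0.212) were not called, nor were Scn4b and Hcn4, and no probe of the 6 genes was called at 8 or 78 weeks. At Gja4 row 2 the SD was 0.24 in adult females and 0.22 in adult males, against 0.07 and 0.10 in young rats. At Gja1 row 3 it was 0.24 and 0.39 against 0.07 and 0.10, and at row 4 0.08 and 0.23 against 0.11 and 0.22. Where adults varied more, the shared estimate can understate the error of their difference, and these adjusted p-values can be too small. The adult comparison was accompanied by a general shift. The median difference of all rows at 21 weeks was -0.14 under the scaling to the 75th percentile and -0.02 under quantile normalization, against -0.0043 at 8 and -0.0038 at 78 weeks. Marker lists of several cell types also differed between the adult sexes. The 11 ventricular rows summed to 931 to 1217 in females and 1013 to 2317 in males, while 8 of these rows were higher in females by their means, with a median difference of 0.46. The 6 atrial rows, all lower in females by their means, summed to 828 to 1097 in females and 1029 to 1619 in males. The 9 endothelial rows summed to 58.0 to 78.2 in females and 32.6 to 62.3 in males, although 7 of the rows were lower in females (median difference -0.10). The 2 arterial endothelial rows, both lower in females, summed to 0.119 to 0.150 and 0.128 to 0.258. The 8 fibroblast rows summed to 77.2 to 91.3 in females and 90.4 to 101 in males, although 5 of the rows were higher in females (median difference 0.09). The 6 leukocyte rows, 5 of them lower in females, summed to 10.0 to 13.8 in females and 12.6 to 17.0 in males, with 4 of 5 female sums below all males. The 3 adipocyte rows, all lower in females, summed to 11.4 to 68.9 and 19.8 to 48.6, with 3 of 5 female sums below all males. The part of these markers and of the weaker male arrays in the connexin results was not tested.

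The other genes of conduction were taken as 5 lists, for sodium channels, pacemaker channels, connexins, the intercalated disc and factors that pattern the conduction system. Of these genes 61, 61 and 59 had rows at 8, 21 and 78 weeks, with 81, 80 and 78 rows, and limma called 0 rows after adjustment at each age. Unadjusted limma p-values under 0.05 were found in 2 rows higher and 4 lower in females at 8 weeks, 11 and 7 at 21 weeks and 3 and 8 at 78 weeks. Among all rows, 5.74%, 15.9% and 5.65% were under that threshold at these ages. In adults the 8 sodium channel rows had a median of 0.26 and the 26 rows of the intercalated disc one of 0.22, against -0.14 for all rows. At an unadjusted p under 0.05 there were 2 sodium channel rows higher and 1 lower, and 5 rows of the intercalated disc higher and 0 lower. Of all 27383 rows in adults, 1696 were higher and 2649 lower at that threshold. The 13 connexin rows other than those of Gja1, Gja4 and Gja5 had a median of -0.29 in adults, with 3 rows higher and 10 lower by their means, and 0 higher and 3 lower at an unadjusted p under 0.05.

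The genes of these lists with the smallest p included Cxadr, an adhesion receptor of the intercalated disc, which was higher in all 5 females than in any male at 8 weeks (0.30, exact p = 0.00794, limma adjusted p = 0.556) and again at 21 weeks (0.47, limma adjusted p = 0.268). Row 2 of Tbx18, a factor of sinoatrial node development, was 0.54 higher in adult females (limma adjusted p = 0.268), with no overlap. Gja3, a connexin best known from the lens, had a difference of -0.48 in adults (limma adjusted p = 0.271), with all females below all males. Gjd3, a further connexin, had -0.60 at 78 weeks (exact p = 0.0317, limma adjusted p = 0.856). Isl1, at 8 and 78 weeks, and Scn10a, at 78 weeks, also ranked among the smallest p-values, but were not well above background in at least 1 sex and have no fold.

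Across ages, Scn4b was higher in adult and old than in young hearts, Hcn4 was highest in old hearts, and Gja5 was higher and Gja1 row 4 lower after 8 weeks. The study handled each age as a batch of its own, so batch and age cannot be told apart in these values. They were fitted on the probes of all 30 arrays, averaged over the sexes. The 12 probes above background under the names of the 6 genes include the opposite-strand probes of Gja1 rows 1, 2, 3 and 5. Of the 12, limma called 5 higher and 3 lower at 21 than at 8 weeks, where it called 54% of all probes (39.6% higher). The opposite-strand probe of Gja1 row 1 was among those higher, and those of rows 3 and 5 among those lower. From 8 to 78 weeks it called 4 higher and 3 lower, against 8.89% (4.56% higher), and from 21 to 78 weeks 2 higher and 2 lower, against 30.5% (12.9% higher). All probes together shifted by a median of 0.29, 0.12 and -0.19 in these comparisons (0.05, 0.0036 and -0.05 under quantile normalization), and changes have to be read against that shift.

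On a log2 scale on which 0 is the 75th percentile of the array, the level of the Scn4b probe A_42_P674843 lay between 3.24 and 3.93 in young, 4.58 and 5.17 in adult and 4.55 and 6.37 in old rats. No rat of 21 or 78 weeks reached down to the young range. The change was 1.29 from 8 to 21 weeks (SE 0.15, 2.45-fold, limma adjusted p = 3.41e-07) and 1.41 from 8 to 78 weeks (limma adjusted p = 2.39e-07), with 0.12 between 21 and 78 weeks (limma adjusted p = 0.538). A_43_P10334 gave 1.11 and 1.07 (limma adjusted p = 1.27e-05 and 7.92e-05) and -0.04. On the slide that held 2 young and 2 old arrays, the probes differed by 1.33 and 1.14 between the ages, with no test. Under normexp background correction the change of A_42_P674843 was 0.74 and 1.01 and no longer passed (limma adjusted p = 0.0621 and 0.124), while A_43_P10334 still passed with 0.54 and 0.45 (limma adjusted p = 0.00619 and 0.0489).

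The Hcn4 probe A_44_P327807 had medians of -2.89 in young, -3.41 in adult and -2.20 in old rats, with the highest value, -0.65, in an old male. It was well above background on 8 of 10 young, 4 of 10 adult and 10 of 10 old arrays. The change was 0.93 from 8 to 78 weeks (1.91-fold, limma adjusted p = 0.00777), 1.33 from 21 to 78 weeks (limma adjusted p = 4.28e-05) and -0.40 from 8 to 21 weeks (limma adjusted p = 0.131). Within the shared slide it was 0.81. Normexp background correction gave 0.48 and 0.24 for the first pair of changes, neither of which passed (limma adjusted p = 0.0799 and 0.706).

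Hcn2 moved little, with 0.23 from 8 to 21 weeks (limma adjusted p = 0.00677) and -0.21 from 21 to 78 weeks (limma adjusted p = 0.0192) at A_44_P911768. Beyond the median of all probes these changes were -0.06 and -0.02. Its table probe A_43_P15654 gave 0.21 (limma adjusted p = 0.0808) and -0.15 (limma adjusted p = 0.264).

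Among the connexins, Gja5 was 0.38 higher at 21 weeks (SE 0.08, limma adjusted p = 4.32e-04) and 0.35 higher at 78 weeks (limma adjusted p = 0.00359) than at 8 weeks, or 0.09 and 0.24 beyond the median of all probes, and 0.52 higher in old rats within the shared slide. Normexp background correction gave 0.12 and 0.09, which did not pass. Gja1 row 4 (A_44_P393551) changed by -0.33 to 21 weeks (limma adjusted p = 0.00205) and by -0.30 to 78 weeks (limma adjusted p = 0.0161), and by -0.60 within the shared slide. Under normexp these changes were -0.76 and -0.66 (limma adjusted p = 0.0578 and 0.124), and quantile normalization gave -0.29 to 78 weeks (limma adjusted p = 0.0771). The opposite-strand probe A_44_P836591 fell by 0.62 from 8 to 21 weeks (limma adjusted p = 1.99e-06) and was 0.02 from its young level at 78 weeks. Of the other opposite-strand probes of the locus, A_44_P547191 changed by -0.32 and -0.40 to 21 and 78 weeks (limma adjusted p = 0.00879 and 0.0102, and 0.0578 and 0.0577 under normexp) and A_44_P125273, the mirror of row 4, by 0.60 to 21 weeks (limma adjusted p = 0.00435). A_44_P547197 changed by -0.27 to 78 weeks (limma adjusted p = 0.0387), a call that was lost when any of 13 single rats was left out, when both odd arrays were left out and under normexp, with limma adjusted p up to 0.282. Gja4 changed by 0.07 from 8 to 21 weeks and by -0.25 from 21 to 78 weeks (limma adjusted p = 0.0126), of which -0.07 was beyond the median of all probes, and the latter did not pass under normexp (-0.15, limma adjusted p = 0.982).

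**Figure D4:**
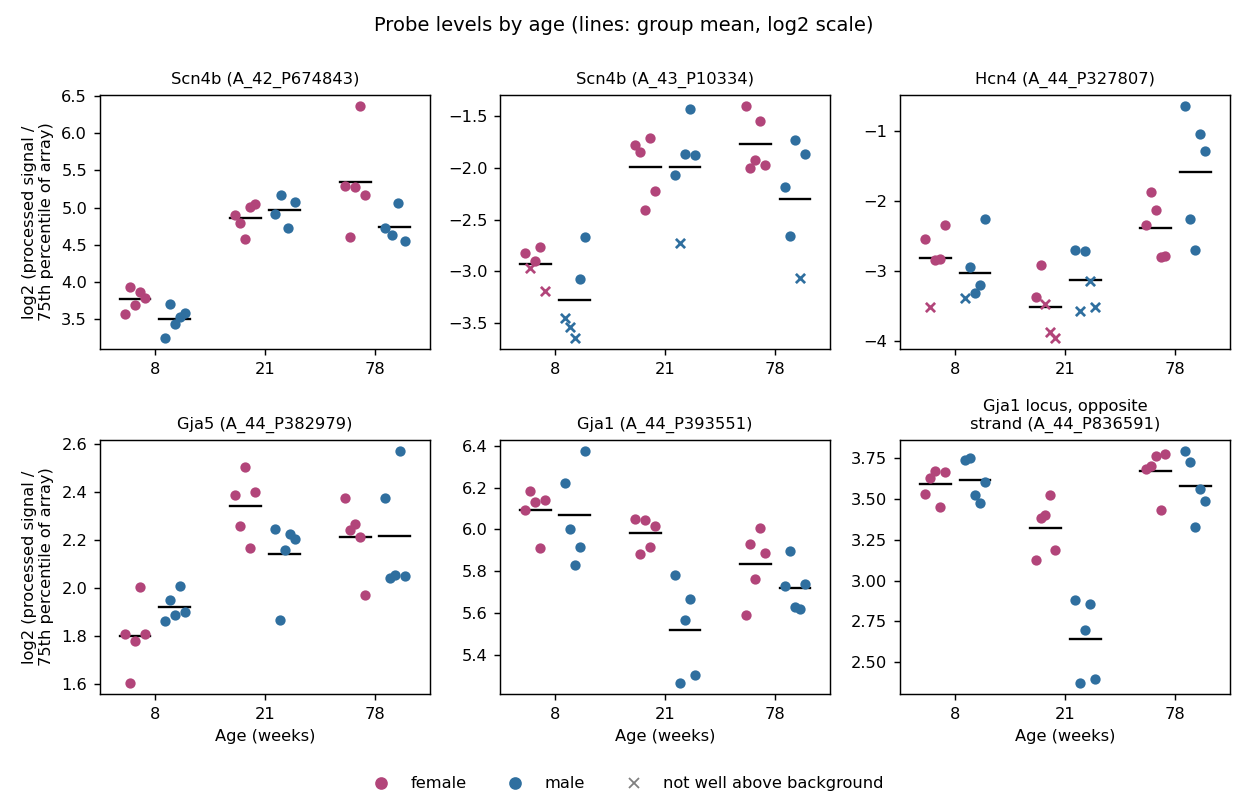
Levels of 6 probes (log2 scale, 75th percentile of the array = 0) in each rat at 8, 21 and 78 weeks, with lines at the mean of each sex. Circles are arrays on which the probe was well above background and crosses arrays on which it was not, and each panel has its own scale. Scn4b A_42_P674843 rises from 3.24 to 3.93 in young to 4.58 to 5.17 in adult rats, and the A_44_P836591 panel shows adult males lowest, between 2.37 and 2.88.

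When the 6 groups were put in order of their mean at each probe, nearly all neighbors overlapped in their ranges. At Scn4b A_42_P674843 the old and adult groups of both sexes came first, and the old males were separated from the young females, which followed them. At A_44_P836591 the adult females were separated from the adult males, which came last. At Gja1 row 4 the order ran from young females (mean log2 6.09) and young males (6.07) over adult females (5.98), old females (5.83) and old males (5.72) to adult males (5.52). The difference between the sexes was not shown to depend on age for any of the 12 probes. The interaction of sex and age gave limma adjusted p-values of at least 0.275 from 8 to 21, 0.211 from 21 to 78 and 1.00 from 8 to 78 weeks, and 0 of 12 probes were called, against 0.00244%, 0.00244% and 0% of all probes. At an unadjusted limma p under 0.05 there were 5, 8 and 1 of these 12 probes. The share of all probes at that threshold is not given here, so these counts cannot be judged against it. Without male replicate 1 at 21 weeks the interaction of A_44_P836591 was called, with 0.77 from 8 to 21 weeks (limma adjusted p = 0.0395) and -0.65 from 21 to 78 weeks (limma adjusted p = 0.0479), as was that of A_44_P547197 from 21 to 78 weeks (-0.70, limma adjusted p = 0.0405).

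The probes whose values followed each conduction gene most closely over the 30 arrays were sought among 4579 probes by Pearson's r, after the mean of each sex and age had been subtracted. The arrays differ in brightness and share slides, so the values are a description. Row 4 of Gja1 was followed by the RNA helicase Ddx5 (r = 0.80), the transcription factor Nfib (0.77) and the splicing protein Son (0.76). Row 2 of Gja4 was followed by Ninj1 (0.84), Kazald1 (0.81) and Psen2 (0.81), and Gja5 by Copb1 (0.79), Rad23b (0.76) and Brd8 (0.68). Scn4b was followed by the phosphodiesterase Pde4a (0.78), the cation channel Trpc1 (0.74) and Pcsk6 (0.69). The pacemaker genes had weaker partners, Sema6c (0.66), Rbm14 (0.63) and Hcrt (0.63) for Hcn2 and Clstn1 (0.66) and Abcb4 (0.58) for Hcn4.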

How the data were processed

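Per the labels and the authors' methods, Cy3-labeled heart RNA was hybridized to 1-color arrays (8 slides) and quantified with Agilent Feature Extraction 9.5.1.1. The deposited tables hold linear intensity scaled by the authors to the 75th percentile of each array, with some rows averaging several probes. The deposited scanner files hold the background-subtracted processed intensity, the raw median intensity and flags. Of the rows, 99.4% at each age were matched to the processed intensity within 0.002 log2, over 10, 5 and 10 arrays. Since the male columns at 21 weeks could be tied to the group alone, values without single rats came from the scanner files.

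The sexes were compared at each age on log2 table values with limma 3.58.1 in R 4.3.3 (two-sided, Benjamini-Hochberg over all rows, threshold 0.05) and by exact permutation tests in Python 3.11.15. Ages and interactions were fitted on log2 processed intensity over the 75th percentile of all non-control probes, 43379 spots per array, leaving out flagged spots. limma was tested on simulated data before use. Every row of the 6 genes is named. Of the other conduction lists, up to 3 genes per comparison with the smallest p are named, and up to 3 probes with the highest r in the search for likeness, and some genes these rules chose are not reported here. Rows without any array well above background in a sex were given no fold. The genes and lists were chosen with earlier results of these data known. Array number, 5 rats per sex, limits precision. Alternatives were normexp (offset 50), quantile normalization, raw median signal, filters on dim rows, the mean of the rows of a name, the methods' t-test, slide and replicate blocks, and leaving out rats.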

Additional observations from a re-analysis of the deposited data

Results flagged for a closer look

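Among 60 groups of 5 rats (10 rows, both sexes, 3 ages), 4 held a rat that stood apart from the other 4 by Dixon's criterion, and chance gives about 1 in 20 groups. Gja1 row 3 had a log2 value of -0.95 in female replicate 3 at 21 weeks, the nearest other female being at -0.51. Gja4 row 2 had 0.64 in the 78-week array labeled male replicate 3, against 0.84 in the nearest male. This is one of the arrays whose Y-linked genes were at odds with their label. Gja5 had 1.05 in male replicate 2 at 21 weeks, against 1.34 in the nearest male, and Hcn2 had -0.93 in the same rat, the highest male, against -1.43. The array of that rat was the dimmest of all, its 75th percentile being 39.9.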

How the results depend on the processing

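The direction of the adult differences of Gja1 rows 1 to 5, Gja4 row 2, Gja5, Hcn2, Hcn4 and Scn4b was kept under every alternative that used all 10 arrays. Their size was not always kept. It was 0.17 to 0.67 for Gja1 row 2, 0.11 to 0.52 for row 3 and -0.47 to -0.12 for Gja4 row 2. For Hcn2 it was -0.46 to -0.25, for Hcn4 -0.52 to -0.06 and for Scn4b -0.17 to -0.01. Rows 1, 4 and 5 of Gja1 had -0.68 to -0.46, 0.45 to 0.98 and 0.67 to 0.91, and Gja5 had 0.19 to 0.26. Normexp background correction turned 78-week differences to 0.054, 0.11, -0.19 and -0.26 (Gja1 rows 1, 3, 4 and 5), -0.096 (Gja4 row 2) and 0.063 (Hcn4). It turned the 8-to-78-week changes of A_44_P836591 to -0.32 and of Hcn2 A_44_P911768 to -0.32, the 8-to-21-week changes of Gja4 to -0.20, A_44_P911768 to -0.21 and Hcn4 to 0.24, and the 21-to-78-week interactions of Gja4 to -0.20, A_44_P911768 to -0.75 and Scn4b A_42_P674843 to -0.49. Quantile normalization turned Gja1 row 3 at 78 weeks to 0.018, row 4 at 8 weeks to -0.016, the 8-to-21-week changes of Gja4 to -0.0035 and A_44_P911768 to -0.0051, and the 21-to-78-week changes of Gja5 to 0.060 and A_44_P911768 to 0.018. Gja1 row 3 at 78 weeks also turned with the raw median signal (0.040) and in the fit of 30 arrays (0.012), and Gja1 row 2 (-0.027) and Gja4 row 2 (-0.052) at 78 weeks turned without both odd arrays. The cause was not tested.

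Leaving out single rats turned small differences between the sexes. The ranges were -0.25 to 0.012 (Gja1 row 1), -0.050 to 0.084 (row 4) and -0.20 to 0.0069 (Hcn4) at 8 weeks, -0.17 to 0.018 (Scn4b) at 21 weeks, and -0.011 to 0.10 (Gja1 row 2), -0.069 to 0.062 (row 3), -0.016 to 0.046 (Gja4 row 2) and -0.060 to 0.061 (Gja5) at 78 weeks. From 21 to 78 weeks they were -0.0034 to 0.061 (Gja1 row 4), -0.070 to 0.0039 (Gja5), -0.0069 to 0.21 (Scn4b A_42_P674843) and -0.13 to 0.054 (A_43_P10334), and from 8 to 78 weeks -0.0057 to 0.052 (A_44_P836591) and -0.0015 to 0.040 (A_44_P911768).

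Of the 30 exact tests of conduction gene rows over the 3 ages, 10 had p under 0.05. This share was 6.22%, 16.3% and 6.59% among all rows at 8, 21 and 78 weeks. Among the 10 were rows 1, 2, 3 and 5 of Gja1 at 21 weeks, which came from opposite-strand probes. The count of conduction gene tests was 6 with normexp, 8 with quantile normalization and 12 with the raw median signal. It was 6 (without male replicate 2 at 21 weeks) to 11 without single rats. It was also 6 with the mean of the rows of a name, which has 1 test for each of the 6 genes at an age and so fewer tests. The exact test was not run with blocks or as the methods' t-test. Over all rows limma called 28 between the sexes at 8 weeks (17 with normexp, 11 in the fit of 30 arrays, 15 with the slide as a block, 13 to 32 without single rats), 14 at 21 weeks (1 with normexp, 22 with the raw median signal, 30 among rows well above background on at least 5 arrays, 2127 in the fit of 30 arrays, 8 to 18 without single rats) and 0 at 78 weeks (1 in the fit of 30 arrays, 9 without both odd arrays, 0 to 1 without single rats; 1501 at an unadjusted p under 0.05). The numbers were not taken to pair females and males, since same-number correlations were not above 0.1 in every pair (-0.08 to 0.14 at 8, -0.13 to 0.31 at 21 and 0.06 to 0.22 at 78 weeks). At 78 weeks 4 of 5 pairs were above 0.1 and correlated best with their own number, and same-numbered rats shared slides. With the replicate block limma called 5 rows at 8, 5 at 21 and 0 at 78 weeks. Probes called between 8 and 21 weeks numbered 22140 (2819 with normexp, 12636 among probes above background on at least 15 arrays, 12717 with quantile normalization), between 8 and 78 weeks 3646 (753 with normexp) and between 21 and 78 weeks 12510 (1152 with normexp). The interaction was called at 1 probe from 8 to 21 weeks (0 with normexp, 4 with quantile normalization, 2 without both odd arrays, 0 to 117 without single rats), 0 from 8 to 78 weeks (1 with the filter, 2 with quantile normalization, 0 to 1 without single rats) and 1 from 21 to 78 weeks (0 with normexp, 2 without both odd arrays, 1 to 480 without single rats). The highest of the first and last of these counts were found without male replicate 1 at 21 weeks.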
